A study of Homo sapiens with 8 samples.

Results

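A set of 10 genes known to be induced by low oxygen was followed through heat shock and recovery in HCT116, an established human colon cancer line, and in HCT116 cells with a knockout (KO) of FBXW7. The genes were NDRG1, ADM, ANKRD37, BNIP3, BNIP3L, VEGFA, EGLN3, KDM3A, P4HA1 and BHLHE40. They were chosen by symbol, with earlier results of these data known. All 10 were found among the 55075 genes of the deposited tables. They also passed the filter on low counts, which left 17471 genes to test. The 4 groups were wild-type (WT) and KO cells heated at 42 °C for 1 h, and WT and KO cells given the same heating and then 2 h at 37 °C, with 2 libraries each. All groups had been heated, and unheated cells were not analysed here, so a level at heat shock cannot be set against a resting level. The series text speaks of biological replicates, and the sources used here do not say whether these were separate cultures or whether the KO line is 1 clone. The p-values below therefore reflect the variation of these libraries alone, which may be technical. Scatter between the 2 libraries of a group, as chi-square per degree of freedom over genes, was uneven. It was 19 in WT and 4.91 in KO at heat shock, and 2.43 in WT and 8.23 in KO at recovery. Dispersion was estimated over all 8 libraries together, so the SEs do not follow this unevenness group by group. Oxygen was not a variable in any label.

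Low oxygen is sensed by prolyl hydroxylases of the EGLN family, which in normal oxygen mark the alpha subunits of hypoxia-inducible factor (HIF) for capture by VHL and degradation. When the hydroxylases slow, the alpha subunit pairs with ARNT and binds short core sequences in promoters and enhancers, with the coactivators EP300 and CREBBP. FBXW7 picks substrates for an SCF-type ubiquitin ligase, and HIF1A is among the proteins reported as its substrates. Protein was not measured here.

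Library totals ran from 15507896 to 34387618 counts, and were lowest in WT recovery. FBXW7 itself was counted at 33.5 and 31.4 CPM in WT at heat shock and 23.0 and 21.7 CPM in WT at recovery, where CPM is the count divided by the scaled library total. In KO cells FBXW7 was at 17.4 and 14.9 CPM at heat shock and 14.01 and 13.8 CPM at recovery. Every KO library lay below every WT library, with a log2 fold change of KO against WT of -1.01 ± 0.10 (SE, adjusted p = 1.88e-06) at heat shock and -0.68 ± 0.11 (SE, adjusted p = 8.03e-05) at recovery, so FBXW7 transcript was lower and still present. Of 10 epithelial and colon markers 9 exceeded 1 CPM in every library, and CDX1 did not. Of 12 markers of other cell types 11 stayed below 1 CPM everywhere, and COL1A1 was the other.

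The promoters of ADM, ANKRD37 and BHLHE40 are shown because these genes changed in the same direction in both lines during recovery. Each runs from 250 bases before to 50 after a transcription start, 5′ to 3′, from RefSeq on GRCh38.p14, with HIF core matches (ACGTG or GCGTG, either strand, and the joined CACGTG) in capitals. The ADM window is chr11:10304823-10305122 (+), the ANKRD37 window is chr4:185396591-185396890 (+) and the BHLHE40 window is chr3:4979187-4979486 (+).
ADM: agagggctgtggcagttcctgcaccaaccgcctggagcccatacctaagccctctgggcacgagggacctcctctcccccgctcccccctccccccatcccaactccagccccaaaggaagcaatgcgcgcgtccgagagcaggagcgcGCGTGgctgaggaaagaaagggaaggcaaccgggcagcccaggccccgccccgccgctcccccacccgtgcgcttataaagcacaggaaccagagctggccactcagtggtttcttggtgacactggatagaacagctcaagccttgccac
ANKRD37: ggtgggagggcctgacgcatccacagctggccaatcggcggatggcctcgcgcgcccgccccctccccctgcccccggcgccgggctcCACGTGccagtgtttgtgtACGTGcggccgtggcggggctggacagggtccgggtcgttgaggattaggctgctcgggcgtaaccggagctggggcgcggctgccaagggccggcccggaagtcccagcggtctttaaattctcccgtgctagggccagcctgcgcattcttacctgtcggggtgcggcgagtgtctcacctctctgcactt
BHLHE40: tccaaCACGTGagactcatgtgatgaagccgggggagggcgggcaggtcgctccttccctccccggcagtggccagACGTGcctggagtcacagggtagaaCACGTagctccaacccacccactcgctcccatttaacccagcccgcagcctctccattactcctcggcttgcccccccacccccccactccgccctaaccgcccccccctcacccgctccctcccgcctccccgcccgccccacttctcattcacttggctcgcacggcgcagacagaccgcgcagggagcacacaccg
ADM held 1 core, whose first base lay 101 bases before the start. ANKRD37 held 3, at 162, 161 and 143 bases before it, the first 2 being both strands of 1 CACGTG. BHLHE40 held 4, at 245, 244, 174 and 149 bases, again with 1 CACGTG. RefSeq windows matched 7 of the 10 genes, in 8 windows, and NDRG1, BNIP3L and VEGFA had no entry. A core was present in 7 of the 8 windows, all but that of EGLN3, against 48.4% of all 35116 windows of this length. The 2 KDM3A windows overlap and hold the same GCGTG, 26 and 116 bases before their starts. Both core forms contain CG, and the 8 windows had 64.0 to 80.7% GC. The share over all windows was not matched for GC. CACGTG was in the windows of ANKRD37, BHLHE40 and BNIP3, against 7.26% of all windows. The heat shock element motifs GAANNTTC and TTCNNGAA, searched on both strands, were in 0 of the 8 windows, against 13.5% of all windows for either. These matches describe letters only.

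In WT cells 9 of the 10 genes rose between heat shock and recovery and 1, VEGFA, fell. Over all genes tested 24.8% rose and 26.0% fell. The median log2 fold change of the 10 was 1.00, against 0.01 over all genes. The 10 were chosen with earlier results of these data known. Neither this contrast nor any later one of the 10 with all genes is therefore independent evidence. Of 63 other hypoxia-inducible genes tested, 25 rose and 20 fell in WT, with a median of 0.09. In KO cells 5 rose (ADM, ANKRD37, BHLHE40, NDRG1 and VEGFA), 4 fell (BNIP3L, EGLN3, KDM3A and P4HA1) and BNIP3 did not pass the test, against 20.6% of all genes rising and 21.1% falling, with a median of 0.10 against -0.02. The test was edgeR's quasi-likelihood F test with Benjamini-Hochberg adjustment over all genes, at an adjusted p of 0.05. In bulk RNA a change in the number of cells that express a gene and a change in RNA per cell cannot be told apart.

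**Figure D1:**
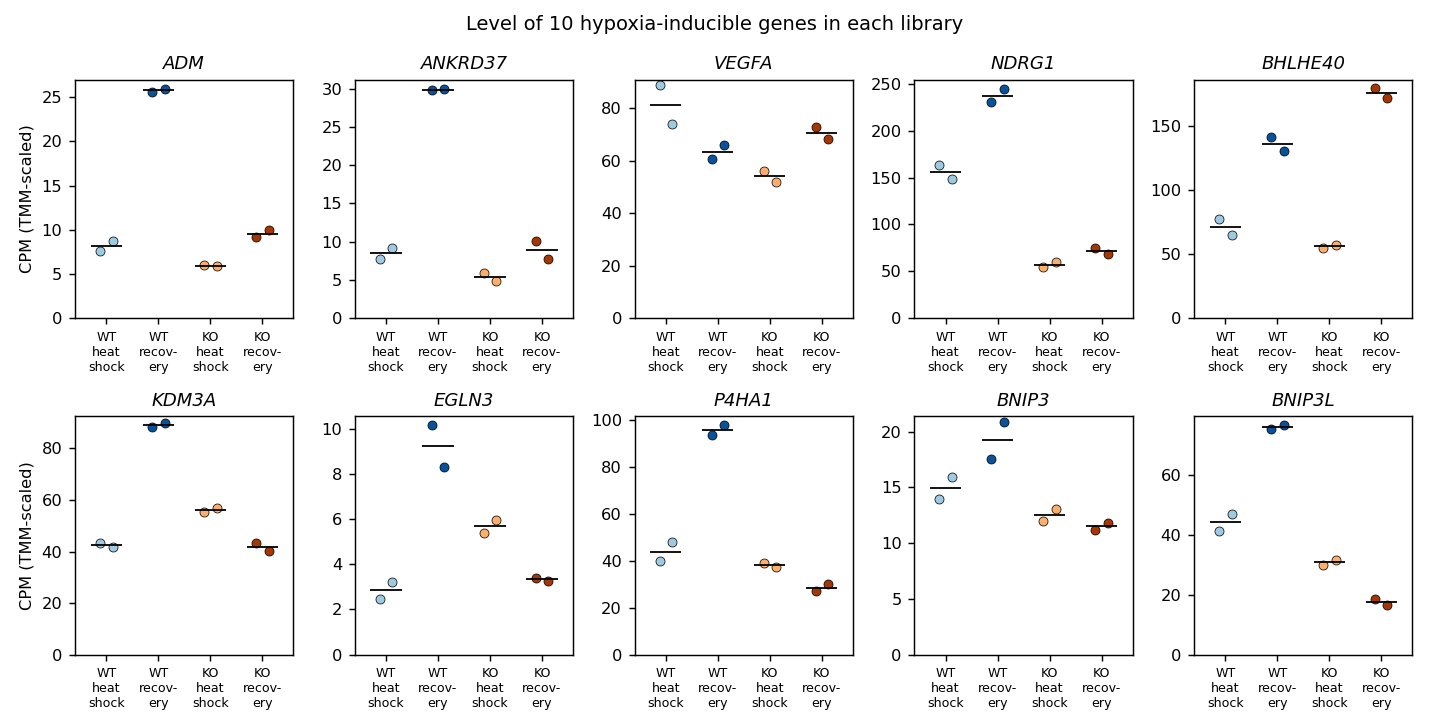
Level of each of the 10 genes in CPM (y axis, from 0, each panel with its own scale) in the 8 libraries, by group (x axis). Points are libraries and lines are means of 2 libraries. The WT recovery points are the highest of the 4 groups for 8 genes, and for BHLHE40 the KO recovery points, at 180 and 172 CPM, are the highest.

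Genes that rose in both lines were ADM, ANKRD37, BHLHE40 and NDRG1. Rising in both lines was seen for 1.80% of all genes tested and falling in both for 1.94%, which held for 0 of the 10 genes. The 2 recovery comparisons share no library, but the 10 were chosen with earlier results of both known, so these shares are not independent evidence.

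ADM encodes adrenomedullin, a secreted vasodilator peptide (chromosome 11, bases 10304680 to 10307397, GRCh38). ADM was at 7.58 and 8.77 CPM in WT at heat shock and 25.6 and 26.0 CPM in WT at recovery. In KO cells ADM was at 5.95 and 5.85 CPM at heat shock and 9.15 and 9.94 CPM at recovery. Recovery lay above heat shock without overlap in both lines, and the KO recovery level came only slightly above that of WT heat shock. The log2 fold change was 1.66 ± 0.13 (SE, adjusted p = 1.07e-08) in WT and 0.70 ± 0.13 (SE, adjusted p = 3.83e-04) in KO. ANKRD37 encodes an ankyrin repeat protein (chromosome 4, 185396021 to 185400628). ANKRD37 was at 7.78 and 9.13 CPM in WT at heat shock and 29.8 and 30.0 CPM in WT at recovery. In KO cells ANKRD37 was at 5.95 and 4.80 CPM at heat shock and 10.1 and 7.73 CPM at recovery. The WT recovery pair stood far above all 6 other libraries, while KO recovery overlapped WT heat shock. Its log2 fold change was 1.82 ± 0.13 (SE, adjusted p = 2.52e-09) in WT and 0.72 ± 0.14 (SE, adjusted p = 3.12e-04) in KO. ANKRD37 overlaps UFSP2 on the other strand by 1089 bases, none of them exonic in both. UFSP2 had a log2 fold change of 0.81 in WT recovery, and its part in the ANKRD37 change was not tested.

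BHLHE40 encodes a transcriptional repressor with a basic helix-loop-helix domain (chromosome 3, 4979116 to 4985323). BHLHE40 was at 77.6 and 65.0 CPM in WT at heat shock and 142 and 131 CPM in WT at recovery. In KO cells BHLHE40 was at 55.0 and 57.0 CPM at heat shock and 180 and 172 CPM at recovery. Among the genes that rose in both lines it was the one with the larger rise in KO. Its log2 fold change was 0.94 ± 0.09 (SE, adjusted p = 2.70e-07) in WT and 1.65 ± 0.09 (SE, adjusted p = 1.79e-10) in KO. NDRG1, a stress-responsive gene linked to differentiation, was the most abundant of the 10 per length of transcript in WT. NDRG1 was at 163 and 148 CPM in WT at heat shock and 230 and 245 CPM in WT at recovery. In KO cells NDRG1 was at 54.4 and 59.5 CPM at heat shock and 74.6 and 67.8 CPM at recovery. All 4 KO libraries lay below all 4 WT libraries. The log2 fold change was 0.61 ± 0.10 (SE, adjusted p = 5.33e-05) in WT and 0.32 ± 0.10 (SE, adjusted p = 0.0160) in KO, and the KO value was 0.14 (adjusted p = 0.183) with offsets for GC content and transcript length. With these offsets the KO changes of ADM and ANKRD37 were 0.42 and 0.42, both past the test. Without the first library of either KO group, the KO calls of NDRG1 and P4HA1 were lost. Either way these fits rest on the second KO pair alone, with 0.19 and 0.21 for NDRG1 and -0.31 and -0.29 for P4HA1.

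BNIP3L, EGLN3, KDM3A and P4HA1 rose in WT and fell in KO. This pattern was seen for 10.5% of all genes tested, and its opposite, found for VEGFA, for 11.5%.

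EGLN3 encodes one of the oxygen-sensing prolyl hydroxylases and is itself a HIF target (chromosome 14, 33924231 to 34462774, minus strand). It was the least counted of the 10, down to 48 reads in 1 library. Its level was 2.46 and 3.23 CPM in WT at heat shock and 10.1 and 8.30 CPM in WT at recovery. In KO cells it was 5.39 and 5.97 CPM at heat shock and 3.39 and 3.27 CPM at recovery. The order of the lines turned over: KO was above WT at heat shock and below it at recovery. EGLN3 changed by 1.69 ± 0.20 (SE, adjusted p = 1.69e-06) on the log2 scale in WT and -0.77 ± 0.19 (SE, adjusted p = 0.00267) in KO. The annotated span of EGLN3 overlaps SPTSSA on the same strand by 29568 bases, with 0 exonic bases shared, and SPTSSA drew 5574 reads in all against 934 for EGLN3. SPTSSA moved in the same directions, with 0.83 ± 0.10 (SE, adjusted p = 2.75e-06) in WT and -0.27 ± 0.10 (SE, adjusted p = 0.0334) in KO, and its part in the EGLN3 counts was not tested. KDM3A encodes a histone H3 lysine demethylase (chromosome 2, 86440647 to 86492716). KDM3A was at 43.3 and 42.0 CPM in WT at heat shock and 88.5 and 89.9 CPM in WT at recovery. In KO cells KDM3A was at 55.3 and 56.9 CPM at heat shock and 43.4 and 40.1 CPM at recovery. KDM3A showed the same turnover, with WT recovery above all other libraries. The log2 fold change was 1.07 ± 0.09 (SE, adjusted p = 5.98e-08) in WT and -0.43 ± 0.09 (SE, adjusted p = 0.00108) in KO. When the second library of either KO group was left out, the KO falls of both EGLN3 and KDM3A did not pass the test. Either way these fits rest on the first KO pair alone, with -0.67 for EGLN3 and -0.35 for KDM3A. The KO change of KDM3A was -0.21 (adjusted p = 0.0468) with the offsets.

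P4HA1 encodes a catalytic subunit of collagen prolyl 4-hydroxylase (chromosome 10, 73007217 to 73096974, minus strand). P4HA1 was at 39.9 and 48.2 CPM in WT at heat shock and 93.6 and 98.2 CPM in WT at recovery. In KO cells P4HA1 was at 39.0 and 37.5 CPM at heat shock and 27.1 and 30.2 CPM at recovery. WT recovery lay above every other library, and the heat shock groups lay side by side. P4HA1 had a log2 fold change of 1.13 ± 0.10 (SE, adjusted p = 4.73e-08) in WT and -0.42 ± 0.10 (SE, adjusted p = 0.00249) in KO, the latter -0.14 (adjusted p = 0.197) with the GC and length offsets. An antisense gene shares 47 exonic bases with P4HA1, and held at most 213 reads in any library. It had 55 and 68 reads in WT at heat shock and 192 and 194 in WT at recovery. In KO cells it had 193 and 213 reads at heat shock and 51 and 96 at recovery. These counts moved in the same directions as P4HA1, and the part of the antisense gene in the P4HA1 counts was not tested. BNIP3L encodes a mitophagy receptor of the outer mitochondrial membrane. BNIP3L was at 41.4 and 47.0 CPM in WT at heat shock and 75.4 and 76.5 CPM in WT at recovery. In KO cells BNIP3L was at 29.9 and 31.7 CPM at heat shock and 18.4 and 16.6 CPM at recovery. No 2 groups overlapped, and KO recovery was the lowest. The log2 fold change was 0.78 ± 0.10 (SE, adjusted p = 3.39e-06) in WT and -0.82 ± 0.10 (SE, adjusted p = 6.35e-06) in KO. With the offsets it was 0.47 and -0.46. The pseudogene SDAD1P1, on the other strand, shares 56 exonic bases with BNIP3L. It had 7 and 7 reads in WT at heat shock and 27 and 33 in WT at recovery. In KO cells it had 6 and 13 reads at heat shock and 1 and 5 at recovery. The part of SDAD1P1 in the BNIP3L counts was not tested.

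VEGFA, the angiogenic growth factor (chromosome 6, 43770184 to 43786487), moved the other way. An antisense gene shares 188 exonic bases with VEGFA. That gene was not among those counted, and its part in the VEGFA counts was not tested. VEGFA was at 89.0 and 73.8 CPM in WT at heat shock and 60.6 and 65.8 CPM in WT at recovery. In KO cells VEGFA was at 56.1 and 52.0 CPM at heat shock and 72.7 and 68.1 CPM at recovery. The pairs did not overlap within either line, but the WT heat shock libraries differed by more than the second of them did from WT recovery. VEGFA had a log2 fold change of -0.36 ± 0.10 (SE, adjusted p = 0.00615) in WT and 0.38 ± 0.10 (SE, adjusted p = 0.00451) in KO. The WT fall was -0.20 (adjusted p = 0.211) without WT heat shock replicate 1. It was -0.19 (adjusted p = 0.223) when WT recovery replicate 1 was left out instead, and the KO rise did not pass when any 1 of the 4 KO libraries was left out. BNIP3, the paralog of BNIP3L and also a mitophagy receptor (chromosome 10, 131966455 to 131982013, minus strand), had small changes. BNIP3 was at 13.97 and 16.0 CPM in WT at heat shock and 17.6 and 20.9 CPM in WT at recovery. In KO cells BNIP3 was at 11.98 and 13.1 CPM at heat shock and 11.2 and 11.8 CPM at recovery. No groups overlapped, though both KO groups lay close together. BNIP3 had a log2 fold change of 0.36 ± 0.12 (SE, adjusted p = 0.0157) in WT and -0.13 ± 0.12 (SE, adjusted p = 0.415) in KO. The WT call was lost in 7 of 15 alternatives, among them every fit that left out a WT library. The processed copy BNIP3P1 drew 1428 reads in all, and reads may have been split between them. With both summed, an alternative chosen after these counts were seen, the WT change was 0.62 and the KO change 0.04.

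**Figure D2:**
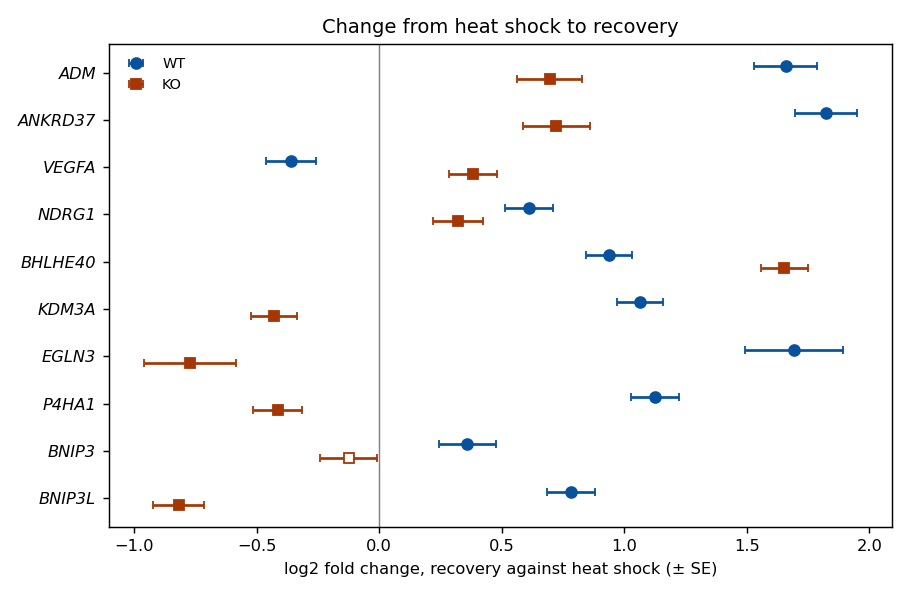
Log2 fold change from heat shock to recovery (x axis, bars ± SE) for each gene (y axis) in WT (circles) and KO (squares), filled where the adjusted p was under 0.05. All WT points but VEGFA lie right of 0, while BNIP3L, EGLN3, KDM3A and P4HA1 lie left of 0 in KO.

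The difference between the 2 recovery responses (KO minus WT, an interaction term over all 8 libraries) passed for 9 of the 10 genes. It was negative for 7 and positive for BHLHE40 and VEGFA, against 27.8% and 28.5% of all genes. The widest difference was that of EGLN3, -2.47 ± 0.27 (SE, adjusted p = 5.32e-07). BNIP3L differed by -1.60 ± 0.14 (SE, adjusted p = 4.77e-08) and P4HA1 by -1.54 ± 0.14 (SE, adjusted p = 5.20e-08). KDM3A differed by -1.49 ± 0.13 (SE, adjusted p = 4.04e-08). These 4 were the genes that rose in WT and fell in KO. ANKRD37 and ADM, which rose in both lines, differed by -1.10 ± 0.19 (SE, adjusted p = 5.94e-05) and -0.96 ± 0.19 (SE, adjusted p = 2.24e-04). BHLHE40 differed by 0.72 ± 0.13 (SE, adjusted p = 1.43e-04) and VEGFA by 0.74 ± 0.14 (SE, adjusted p = 2.06e-04). BNIP3 differed by -0.49 ± 0.17 (SE, adjusted p = 0.0179), a call lost in 9 of 15 alternatives. NDRG1 did not pass, at -0.29 ± 0.14 (SE, adjusted p = 0.0895), and it passed in 4 of 14 alternatives, with -0.77 under the GC and length offsets.

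Transcript length moved with recovery in these libraries. In KO the median log2 fold change of coding genes fell from 0.53 for transcripts under 1000 bases to -0.21 for those of 5000 or more, and in WT it rose from -0.24 to 0.07. Transcripts of the 10 genes ran from 1141 bases (ANKRD37) to 4928 (KDM3A). With offsets for GC content and length the interaction of BNIP3L was -0.93 and that of P4HA1 -0.98, both past the test, and EGLN3 was at -2.51. BNIP3L has 3610 bases and 38.9% GC, and P4HA1 has 2844 bases and 40.9% GC. Across coding genes the median interaction was -0.04 for transcripts of 3000 to 4000 bases and 0.16 for 2000 to 3000. The offsets take GC content and length together, and the part of each in these shifts was not tested. Per the labels, libraries came from poly-A RNA or from RNA freed of ribosomal RNA. No source used here says which library had which, and its part in these differences was not tested.

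**Figure D3:**
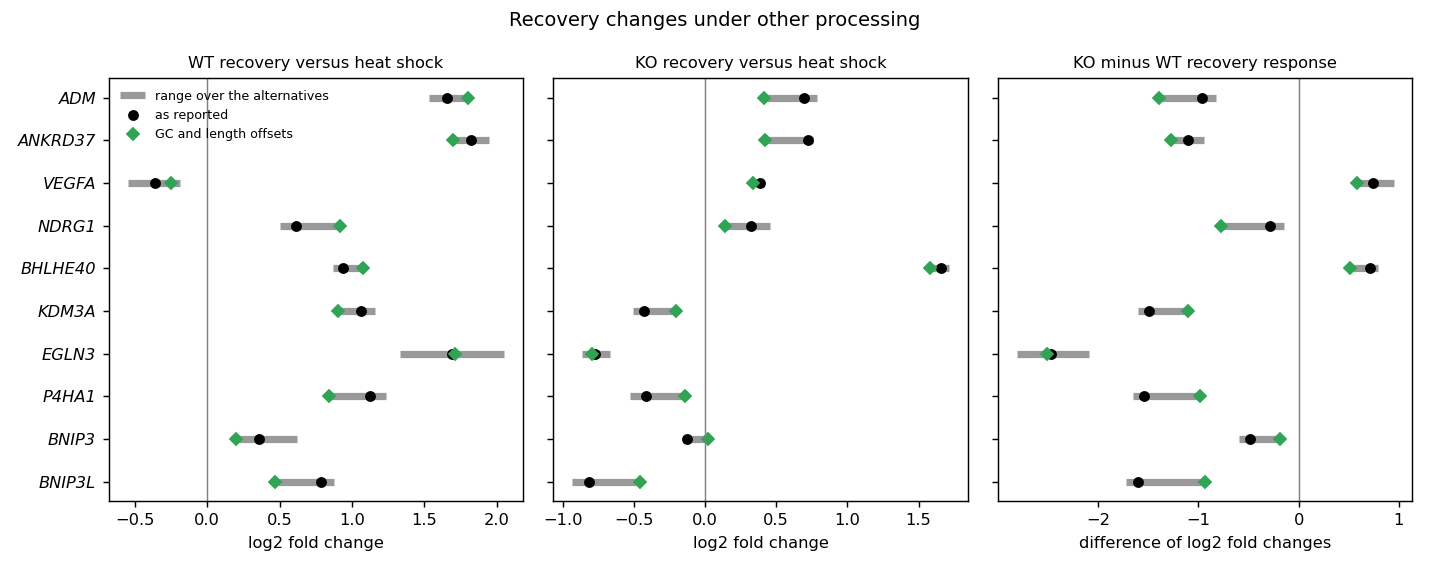
Recovery log2 fold changes in WT (left) and KO (middle) and their difference (right) for each gene. Black points are the reported values, green diamonds those with GC and length offsets, and grey bars the range over the alternatives. In KO, the diamonds of NDRG1, P4HA1 and BNIP3 lie closest to 0.

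Set line against line, the genes were mostly lower in KO, and more so at recovery. At heat shock 6 were lower in KO, 2 were higher and P4HA1 and BNIP3 did not pass, against 28.2% of all genes lower and 27.4% higher. At recovery 8 were lower, BHLHE40 was higher and VEGFA did not pass, against 31.3% lower and 31.8% higher. The median was -0.41 at heat shock and -1.45 at recovery, against -0.03 and -0.01 over all genes. These comparisons use the same libraries as the recovery comparisons and are not separate evidence.

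NDRG1 was lower in KO at both times, at -1.45 ± 0.09 (SE, adjusted p = 2.11e-08) and -1.74 ± 0.09 (SE, adjusted p = 1.57e-09). BNIP3L was at -0.52 ± 0.09 (SE, adjusted p = 2.86e-04) at heat shock and -2.12 ± 0.10 (SE, adjusted p = 5.82e-10) at recovery, the lowest value of the 10. ADM was at -0.47 ± 0.13 (SE, adjusted p = 0.00676) and -1.43 ± 0.11 (SE, adjusted p = 1.02e-07). ANKRD37 was at -0.66 ± 0.16 (SE, adjusted p = 0.00284) and -1.75 ± 0.14 (SE, adjusted p = 1.04e-07). With the GC and length offsets the heat shock values of these 2 did not pass, at -0.12 and -0.31. EGLN3 and KDM3A were higher in KO at heat shock, by 1.00 ± 0.19 (SE, adjusted p = 3.66e-04) and 0.40 ± 0.08 (SE, adjusted p = 8.82e-04). At recovery both were lower, at -1.47 ± 0.17 (SE, adjusted p = 5.07e-06) and -1.10 ± 0.08 (SE, adjusted p = 5.65e-08). P4HA1 was at -0.20 ± 0.10 (SE, adjusted p = 0.0941) at heat shock and -1.74 ± 0.10 (SE, adjusted p = 4.39e-09) at recovery. BNIP3 was at -0.25 ± 0.12 (SE, adjusted p = 0.0918) and -0.74 ± 0.12 (SE, adjusted p = 1.18e-04). The heat shock value passed the test in 4 of 15 alternatives for P4HA1 and in 5 of 16 for BNIP3. With the offsets the heat shock difference was -0.97 for BNIP3L, 0.21 for KDM3A and -0.21 for BHLHE40, all past the test.

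BHLHE40 was lower in KO at heat shock, -0.35 ± 0.09 (SE, adjusted p = 0.00577), and higher at recovery, 0.37 ± 0.09 (SE, adjusted p = 0.00255). The heat shock call was lost without KO heat shock replicate 1 (adjusted p = 0.0519) and the recovery call under upper-quartile scaling (adjusted p = 0.0550). VEGFA was lower in KO at heat shock, -0.59 ± 0.10 (SE, adjusted p = 1.38e-04), and its recovery value was 0.16 ± 0.10 (SE, adjusted p = 0.183).

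**Figure D4:**
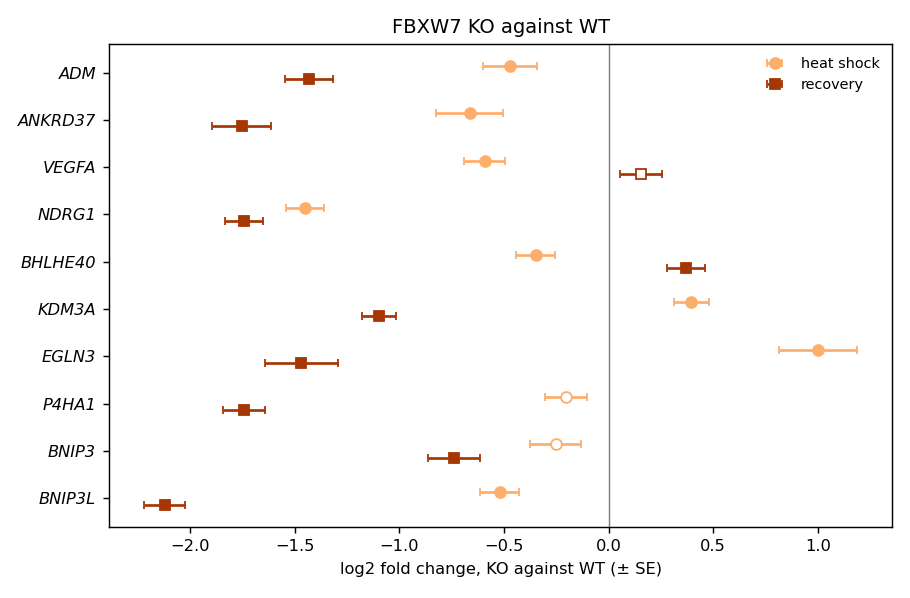
Log2 fold change of KO against WT (x axis, bars ± SE) for each gene (y axis) at heat shock (circles) and at recovery (squares), filled where the adjusted p was under 0.05. At recovery 8 genes lie left of 0. EGLN3, KDM3A and BHLHE40 change sides between the times with both values past the test, and VEGFA changes sides with its recovery value not past it.

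Per kilobase of transcript, NDRG1 had mean levels of 41.5, 63.3, 15.2, 19.0 CPM per kb, first in WT at heat shock and recovery and then in KO at both times. BHLHE40 had 20.5, 39.2, 16.1, 50.8 in that order, and was the highest of the 10 in KO recovery. EGLN3 was the lowest in every group, with 0.998, 3.24, 1.99, 1.17. Across the 8 libraries the log2 levels of the 45 pairs of these genes had a median Pearson r of 0.64, as a description of points that share libraries. ADM and ANKRD37 were most alike (r = 0.98), and VEGFA and EGLN3 least (r = -0.70). Likeness to other genes was ranked among those with a mean count of at least 100 and no clone-style name. Each r below is the largest of many over 8 libraries, so a high value is not by itself a result. The nearest gene was IRGQ for ADM (r = 0.99), OXR1 for BNIP3L (r = 0.998) and HOXA13 for EGLN3 (r = 0.996). It was ANO6 for P4HA1 (r = 0.996) and POLL for NDRG1 (r = 0.996). KDM3A was most like EEF1A1P6 (r = 0.997), ANKRD37 like RPS19P3 (r = 0.985), VEGFA like TBC1D25 (r = 0.987) and BNIP3 like ZNF747 (r = 0.980). BHLHE40 was most like ZFP36 (r = 0.98).

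The HIF machinery list held 12 genes, of which HIF3A was too low to test. In WT recovery 4 of 11 rose and 5 fell, against 24.8% and 26.0% of all genes, with a median of 0.11 against 0.01. In KO 3 rose and 2 fell, against 20.6% and 21.1% of all genes, with a median of -0.10 against -0.02. The coactivators CREBBP and EP300 fell in WT, with log2 fold changes of -1.66 ± 0.11 (SE, adjusted p = 1.94e-09) and -1.02 ± 0.10 (SE, adjusted p = 1.71e-07). In KO CREBBP rose by 0.41 ± 0.11 (SE, adjusted p = 0.00481). EGLN1, the main oxygen sensor, rose in WT by 0.54 ± 0.09 (SE, adjusted p = 1.08e-04) and had -0.33 ± 0.09 (SE, adjusted p = 0.00619) in KO. VHL had 0.39 ± 0.09 (SE, adjusted p = 0.00173) in WT and -0.37 ± 0.09 (SE, adjusted p = 0.00305) in KO. EGLN2 had -0.74 ± 0.11 (SE, adjusted p = 1.96e-05) in WT and 0.49 ± 0.10 (SE, adjusted p = 6.15e-04) in KO, opposite in sign to EGLN1. HIF1A transcript did not pass in either line, at 0.11 ± 0.09 (SE, adjusted p = 0.331) and -0.21 ± 0.09 (SE, adjusted p = 0.0893), and both signs flipped with the GC and length offsets. With the offsets both values passed the test, at -0.24 (adjusted p = 0.0157) in WT and 0.22 (adjusted p = 0.0417) in KO. EPAS1, another alpha subunit gene, rose in WT by 0.23 ± 0.09 (SE, adjusted p = 0.0386) and did not pass in KO. That WT call was lost with DESeq2 (adjusted p = 0.104) and with no filter (adjusted p = 0.213). Against WT, EPAS1 in KO was at -0.27 ± 0.08 (SE, adjusted p = 0.0117) at heat shock and -0.60 ± 0.08 (SE, adjusted p = 1.67e-05) at recovery.

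Of 67 other hypoxia-inducible genes 63 were tested. In WT recovery 25 rose and 20 fell, against 24.8% and 26.0% of all genes, with a median of 0.09 against 0.01. In KO 22 rose and 11 fell, against 20.6% and 21.1% of all genes, with a median of 0.03 against -0.02. ALDOA, ENO1, GPI, GYS1, HMOX1, JMJD6, P4HA2, PFKL, PGAM1, PLOD1, SLC16A3, SLC2A1 and TPI1 fell in WT and rose in KO. BHLHE41, ERO1L, INSIG2, MXI1, PDK1, PLOD2, RSBN1 and ZNF395 rose in WT and fell in KO. FAM162A rose in both lines, by 0.29 ± 0.10 (SE, adjusted p = 0.0195) in WT and 1.05 ± 0.10 (SE, adjusted p = 2.35e-07) in KO. KLHL24 rose in WT by 2.42 ± 0.13 (SE, adjusted p = 1.35e-10), from a mean of 6.10 to 32.6 CPM, and was at 4.004 and 3.28 CPM in KO. ANGPTL4, a regulator of lipoprotein lipase, rose in WT by 3.62 ± 0.21 (SE, adjusted p = 2.62e-10). DDIT4, which restrains mTORC1 signalling, went up in both lines, with 1.69 ± 0.09 (SE, adjusted p = 1.35e-10) and 1.84 ± 0.10 (SE, adjusted p = 9.18e-11), and was lower in KO at both times, at -2.35 ± 0.08 (SE, adjusted p = 8.53e-11) and -2.20 ± 0.08 (SE, adjusted p = 8.82e-11). JMJD6 fell in WT, at -1.69 ± 0.10 (SE, adjusted p = 5.01e-10), and rose in KO, at 0.72 ± 0.09 (SE, adjusted p = 8.44e-06). SLC2A1, the glucose transporter GLUT1, rose in KO by 0.85 ± 0.10 (SE, adjusted p = 1.69e-06) and fell in WT, at -0.36 ± 0.10 (SE, adjusted p = 0.00532). PLOD2, a collagen lysyl hydroxylase, fell in KO, at -0.90 ± 0.10 (SE, adjusted p = 1.27e-06), and rose in WT, at 0.59 ± 0.10 (SE, adjusted p = 9.31e-05). MXI1 and ERO1L had KO minus WT differences of -1.81 ± 0.14 (SE, adjusted p = 7.58e-09) and -1.91 ± 0.15 (SE, adjusted p = 8.06e-09). At recovery 31 of the 63 were lower in KO and 15 higher, against 31.3% and 31.8% of all genes. At heat shock 27 were lower and 13 higher, against 28.2% and 27.4%. STC1 was counted at 0 to 2 reads in each WT library and at 154 to 277 in each KO library.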

How the data were processed

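The authors deposited 4 tables, 1 per replicate and line, of read counts per Ensembl gene for a recovery and a heat shock library, with a log2 fold change and q-values, per the file headers; only the deposited counts were tested. The recovery column was identified from how each comparison is named and from the sign of the deposited log2 fold change, and the opposite reading would flip every recovery change. Per the submitters' processing notes the tools included TopHat and CASAVA and the build was hg19. How reads were counted, and with what strand setting, is not stated in any source used here. Positions are from GENCODE on GRCh38, promoters from RefSeq on GRCh38.p14, and neither was joined to coordinates of the authors' build. NA was set to 0.

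Counts were filtered (filterByExpr), scaled by TMM and fitted with edgeR 4.0.16 in R 4.3.3 over all 8 libraries. Recovery comparisons and their difference had a block for each line and replicate (2 residual degrees of freedom), since the series text describes matched pairs; deviations of same-numbered libraries correlated at -0.0156 in WT and -0.0138 in KO. KO against WT used 4 group means. SE is the log2 fold change over the root of F. Alternatives were DESeq2 1.42.0, other scalings, no filter, the fit with the block dropped or added, GC and length offsets, and each library left out. In the recovery comparisons, leaving out 1 library left its line with 1 pair, because the block absorbs the partner library. Leaving out either library of a pair is thus nearly the same fit. The code was tested on data simulated with the same dispersion for every gene and library and no pair effects. That does not test how well the p-values hold in these libraries. Counts carry no molecular identifiers.

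The members and lists were chosen with earlier results of these data known. Named genes were the 10 members, FBXW7, the machinery list and up to 4 of the other list per comparison by p. Further genes of the other list were named by direction only. The gene nearest each member by Pearson r was also named.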

Additional observations from a re-analysis of the deposited data

Results flagged for a closer look

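The recovery response differed between the lines, by the interaction test, for 9 of the 10 genes. The differences of log2 fold changes (KO minus WT) were ADM -0.96, ANKRD37 -1.10, BHLHE40 0.72, BNIP3 -0.49, BNIP3L -1.60, EGLN3 -2.47, KDM3A -1.49, P4HA1 -1.54 and VEGFA 0.74. It also differed for 14 named genes of the machinery and other hypoxia lists, with ARNT2 0.60, CITED2 -0.90, CREBBP 2.07, EGLN1 -0.87, EGLN2 1.23, EP300 0.89, EPAS1 -0.34, ERO1L -1.91, HIF1A -0.32, HIF1AN 0.74, JMJD6 2.41, KLHL24 -2.70, MXI1 -1.81 and VHL -0.77. The HIF1A difference was 0.46 with GC and length offsets, opposite in sign and past the test.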

How the results depend on the processing

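Of 725 values for the 10 genes under alternatives, 670 kept direction and side of the threshold, 38 lost the call, 14 gained it and 3 reversed. The 725 include fits that left out a library of neither group compared, which could hardly move the log2 fold change. ADM in WT recovery, for example, was at 1.66 both with all libraries and without KO heat shock replicate 1. The 670 therefore overstate how stable the values were. The reversals were BNIP3 in KO recovery, 0.021 with GC and length offsets and 0.037 with BNIP3P1 summed, and VEGFA in KO against WT at recovery, -0.012 under upper-quartile scaling. With the offsets HIF1A reversed to -0.24 in WT recovery, 0.22 in KO recovery, 0.46 in their difference, -0.32 with the replicate block and -0.33 without it in KO against WT at heat shock, and 0.14 and 0.14 at recovery, where no filter gave 0.0026; EGLN1 at recovery went to 0.0086 and 0.0085. Of these HIF1A values those in both recovery comparisons, their difference and heat shock passed the test. The cause was not tested. In KO recovery DESeq2 called 2385 genes up and 2416 down, against 3601 and 3694. Members higher in KO at recovery numbered 0 under upper-quartile scaling and 2 with no filter. Leaving out 1 library each gave, in KO recovery, 1520 to 4233 genes up, 1318 to 4012 down, 3 to 5 members up and 2 to 4 down, and in WT recovery 0 to 1 members down; the lone library is assumed to vary like the others. Upper-quartile scaling moved the median of all genes to 0.10 in WT recovery, -0.14 in the difference and -0.18 in KO against WT at recovery.

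Dropping the replicate block from the recovery comparisons, or adding it to KO against WT, changed no call among the 10 genes.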
